A study of Homo sapiens with 27 samples.

Results

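Of the 13523 genes in the expression table of this study, 7 were followed here across every genotype and treatment: KRT81, SLIT1, SEPT11 (now SEPTIN11), BASP1, ICOS, ATP1B1 and OLFML2A. They were chosen by their log2 differences of TFEB KO from WT or TFE3 KO cells, without drug or in the response to Torin, as extremes of the whole table. Those values are therefore given below as a description and with no test. The WT, TFE3 KO and TFEB KO libraries without drug stood in these contrasts, and the WT and TFEB KO libraries under Torin stood in that of the Torin responses. Every test that uses any of these libraries, HBSS and Torin in WT cells included, shares values with the choice and can be moved by it. All 7 passed the filter on low values, also when the TFEB KO libraries were set aside.

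The cells were 501mel, an established human melanoma line with high MITF, and polyadenylated RNA was measured with 3′ end libraries (QuantSeq Forward). WT cells were left untreated, starved of amino acids in the saline HBSS for 12 h, or given the mTOR kinase inhibitor Torin1 at 250 nM for 12 h. For TFE3 KO, TFEB KO and DKO cells, the last lacking both factors, a 12 h control and the same Torin1 treatment were made, and untreated WT and KO controls are called cells without drug here. All cells were grown with serum. HBSS took the place of the medium for its 12 h, and whether it held serum is not given here. The HBSS comparison therefore cannot set amino acids apart from other parts of the medium. Each KO line was 1 clone made with Cas9, so clone and genotype cannot be told apart in any comparison between genotypes. Nothing states that the 3 libraries of a group came from separate cultures, so p-values measure the spread between libraries, which may be technical.

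TFEB and TFE3 are relatives of MITF, the lineage factor of melanocytes. mTORC1 phosphorylates both when amino acids are plentiful and keeps them in the cytoplasm, and its inhibition lets them enter the nucleus. There they bind short E-box motifs at genes of the lysosome, autophagy and metabolism. The 7 genes have no common function: KRT81 is a hair keratin, SEPT11 a septin of the cytoskeleton, BASP1 a myristoylated protein of the inner plasma membrane, SLIT1 a secreted guidance cue, OLFML2A an olfactomedin domain protein of the extracellular space, ATP1B1 the beta subunit of the sodium pump and ICOS a costimulatory receptor of T lymphocytes.

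The 2 guides define the genotypes and are shown with the genomic bases that follow them, the NGG motif (PAM) in capitals.
TFE3 guide: ggtactgtttcacctgctgcCGG
TFEB guide: agtacctgtccgagacctatGGG
Each guide matched the genome (hg38) at 1 place. The TFE3 guide lies at chrX:49038370-49038389 on the plus strand, in coding exon 4 of the canonical GENCODE transcript, and the TFEB guide at chr6:41690831-41690850 on the minus strand, in coding exon 3. The libraries read the 3′ end of a transcript, away from these sites, so a level that persists says nothing about the edit.

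TFE3 RNA was 24.0 ± 0.285 (SD, n = 3; normalised value) in WT cells, 6.297 ± 1.27 in TFE3 KO cells and 6.35 ± 0.470 in DKO cells without drug, and it was 27.0 ± 4.36 in TFEB KO cells. TFEB RNA was 3.25 ± 0.827 in WT cells and 1.11 ± 0.485 in TFEB KO cells, but it was also low in TFE3 KO cells, at 0.681 ± 0.764. TFE3 RNA thus followed the labels, while TFEB RNA did not tell TFEB KO from TFE3 KO cells. MITF RNA lay between 555.5 and 857.1 in the group means other than WT HBSS, where it was 1423.

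The depth ran from 4147050 to 6526392 reads a library, and 3 reads, the upper limit that a count of 0 allows, equal a value of 0.460 to 0.711. The columns labelled WT HBSS replicate 3 and WT Torin replicate 1 were the same in all 13523 genes and were left out of both groups, which leaves 25 libraries and n = 2 for WT HBSS and WT Torin. Intervals and floors cover counting error only. All 10 melanocytic markers were present in all 25 libraries. Of 10 T lymphocyte markers 1 had a row (CD247, at 0 to 2.50), of 9 epithelial and hair cell markers 3 did (summed value 1.64 to 19.5), of 7 neuronal markers 4 did (93.3 to 188) and of 6 fibroblast markers 3 did (0.624 to 7.38), and their part in the results was not tested.

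**Figure D1:**
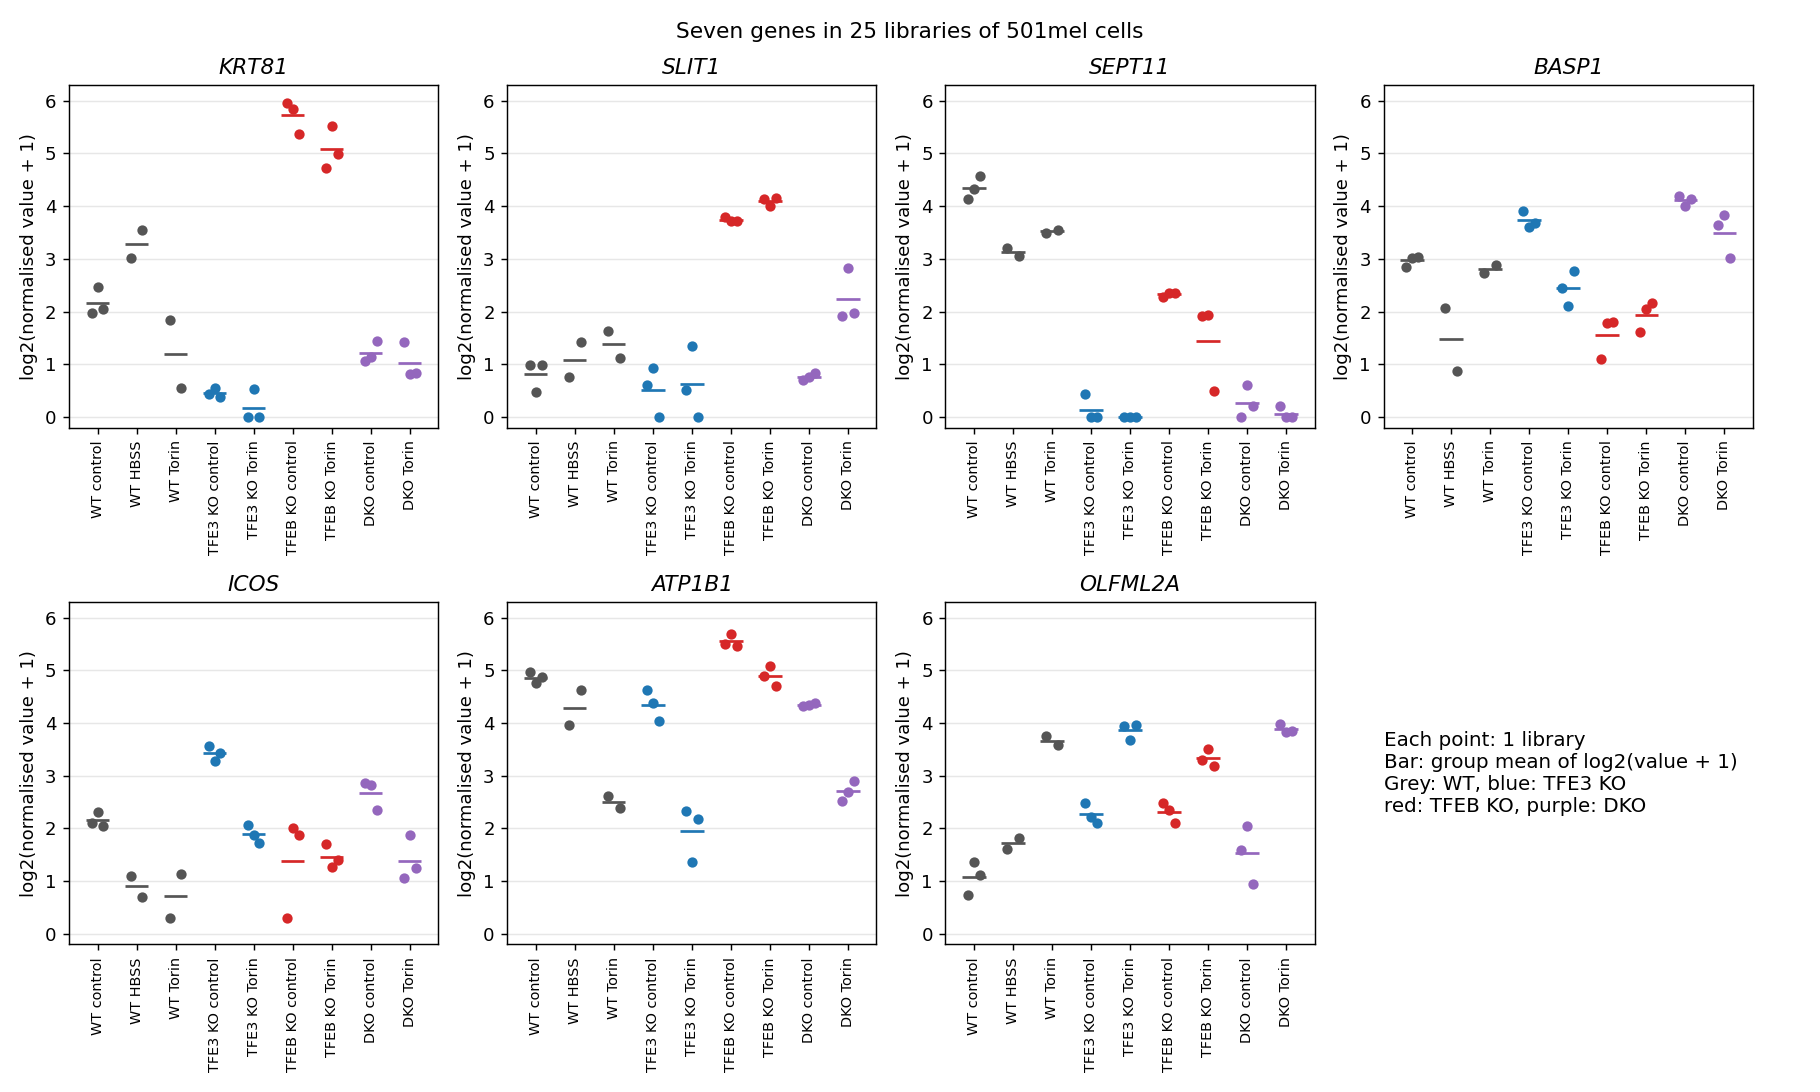
Value of each gene in 25 libraries, as log2(normalised value + 1); points are libraries, bars are group means on this scale, and colours are genotypes. KRT81 and SLIT1 stand high in both TFEB KO groups, SEPT11 lies near 0 in TFE3 KO and DKO cells, and ATP1B1 stays above the other Torin groups in TFEB KO cells.

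KRT81 separated the clones most widely. The gene encodes a type II hair keratin and lies at chr12:52285913-52291534 on the minus strand (hg38, GENCODE). Its normalised values were 60.8, 56.6 and 40.4 in the 3 TFEB KO libraries without drug, against 2.96, 4.55 and 3.12 in WT and 0.353, 0.460 and 0.312 in TFE3 KO libraries. The 3 ranges do not overlap, and the TFE3 KO values rest on 2 or 3 reads a library. In bulk RNA, a lower level in every cell and fewer cells with the RNA cannot be told apart. The mean in TFEB KO cells was 14.8 times that of WT cells, and the ratio of pooled values of TFEB KO to TFE3 KO cells was 137 (exact 95% counting interval 66.2 to 342). DKO cells also lack TFEB, and their values were 1.09, 1.22 and 1.72, below every WT library.

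Under Torin the order of genotypes for KRT81 was similar. TFEB KO libraries held 25.5, 45.1 and 30.9, WT libraries 2.58 and 0.474, DKO libraries 1.69, 0.759 and 0.787 and TFE3 KO libraries 0, 0.445 and 0. The WT and DKO ranges overlap. Against WT, the log2 difference of TFE3 KO cells without drug was -1.71 ± 0.28 (SE), given as a description since KRT81 stood near the end of both contrasts with TFEB KO cells. The ratio of pooled values, WT to TFE3 KO, was 9.31 (exact 95% counting interval 4.24 to 24.2). Under Torin it was also lower in TFE3 KO than in WT cells (-1.02 ± 0.31 (SE), adjusted p = 0.0263), but without WT Torin replicate 2 the log2 difference was -0.38 (adjusted p = 0.633 by limma). In DKO cells without drug the log2 difference from WT was -0.95 ± 0.28 (SE), adjusted p = 0.0151, which was past the p threshold and short of the size threshold of 1 by limma. With edgeR on the recovered reads it was -1.36 (adjusted p = 0.0218) and was called.

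KRT81 was higher in WT cells in HBSS. The WT HBSS libraries were 7.13 and 10.7, both above the untreated range (1.12 ± 0.31 (SE), adjusted p = 0.00241, limma), but the untreated WT values, low against TFEB KO cells, were part of the choice of the gene. The call was lost without WT HBSS replicate 2 (0.86, adjusted p = 0.0805) and at a pseudocount of 0.1 (adjusted p = 0.0515). Torin did not repeat this: the log2 difference in WT cells was -0.97 ± 0.31 (SE), adjusted p = 0.00969, and the WT Torin libraries, at 2 and 11 reads, lay below the untreated ones. Without WT Torin replicate 2 it was -1.61, adjusted p = 5.04e-04, and without WT control replicate 1 (-1.06) or 3 (-1.03) it was also called. In TFEB KO cells it was -0.64 ± 0.28 (SE), with overlapping groups and no test.

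KRT81 has a close relative, KRT86, beside it on chromosome 12, and the annotated spans of both genes overlap, so reads of one may be counted for the other. KRT86 had a mean of 6.10 in TFEB KO cells, 0.973 in WT cells and 0.111 in TFE3 KO cells without drug, and its log2 difference of TFE3 KO from TFEB KO cells was -2.62. The share of the KRT81 values that belongs to KRT86 is uncertain. Of the 12 keratins listed, 5 had a row and 4 were tested besides KRT81. KRT18, a simple epithelial keratin, was higher in DKO than in WT cells (1.11, adjusted p = 0.0306 without drug and 1.28, adjusted p = 0.0284 under Torin, limma), and no other of the 4 was called in TFE3 KO or DKO cells against WT.

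SEPT11 was the gene lowest in TFEB KO against WT cells, yet it was lower still in the other KO lines. Septins are GTP-binding proteins that form filaments at membranes and the cytoskeleton, and SEPT11 lies at chr4:76949751-77040384 on the plus strand. Its values without drug were 16.6, 19.0 and 22.8 in WT, 3.87, 4.12 and 4.14 in TFEB KO, 0.353, 0 and 0 in TFE3 KO and 0, 0.523 and 0.157 in DKO libraries. WT libraries lie above TFEB KO libraries, and these above TFE3 KO and DKO libraries, which overlap each other. The WT mean was 4.81 times that of TFEB KO cells. TFE3 KO cells had 2 reads in all 3 libraries together and DKO cells 4, so the fitted fold changes below depend on the added 1.

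By limma SEPT11 fell in TFE3 KO (-4.20 ± 0.28 (SE), adjusted p = 3.31e-16) and DKO cells (-4.07 ± 0.28 (SE), adjusted p = 7.74e-16) against WT. The ratios of pooled values, WT to KO, were 180 (exact 95% counting interval 49.3 to 1489) and 89.5 (exact 95% counting interval 34.6 to 331). Under Torin, TFE3 KO libraries held no read of SEPT11 and the WT mean was at least 16.3-fold higher, measured against 3 reads per library. The DKO libraries held 1 read under Torin (-3.45 ± 0.32 (SE), adjusted p = 1.47e-11, limma). These calls share WT libraries with the contrasts of TFEB KO from WT cells. SEPT11 stood at the low end there both without drug (-2.01) and under Torin (-2.08). The calls kept direction in every alternative run, but each run reuses WT values of the same groups. SEPT11 also fell in WT cells in HBSS, to 8.28 and 7.33 (-1.21 ± 0.32 (SE), adjusted p = 0.00137), although at a pseudocount of 0.1 the adjusted p was 0.153 and the untreated WT values, high against TFEB KO cells, were part of the choice. With Torin the WT values were 10.3 and 10.7 (-0.82 ± 0.32 (SE), adjusted p = 0.0314), short of the size threshold. In TFEB KO cells Torin gave 2.76, 2.83 and 0.407 against 3.87, 4.12 and 4.14 (-0.89 ± 0.28 (SE)), given without a test since the latter values picked the gene.

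Of the 9 other septins tested, none was called in TFE3 KO (1.52% of all genes without drug, 1.94% under Torin) or DKO cells (1.82% and 2.37%) against WT, a count near that background, with list medians of -0.04 and -0.03 without drug beside 0.00 over all genes tested in both. SEPT7, the septin shared by most filaments, had means of 489 in WT, 524 in TFE3 KO and 462 in DKO cells without drug. In HBSS SEPT1 rose in WT cells (1.58, adjusted p = 4.38e-05, limma) as SEPT11 fell.

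Without drug, SLIT1 was near the detection limit outside TFEB KO cells. SLIT proteins bind ROBO receptors and steer growing axons and migrating cells, and the gene lies at chr10:96998038-97185959 on the minus strand. Its values were 13.0, 12.2 and 12.1 in TFEB KO libraries, 0.986, 0.396 and 0.976 in WT, 0.530, 0.920 and 0 in TFE3 KO and 0.623, 0.697 and 0.783 in DKO libraries. TFEB KO libraries lie above all the others, which overlap each other. The ratio of pooled values of TFEB KO to WT cells was 15.5 (exact 95% counting interval 8.84 to 29.6). Torin gave 16.6, 15.1 and 16.9 in TFEB KO cells (0.36 ± 0.30 (SE), no test), with no overlap with the cells without drug.

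In DKO cells Torin raised SLIT1. The DKO libraries under Torin held 2.77, 6.07 and 2.95, above the DKO libraries without drug and still below every TFEB KO library. The log2 difference was 1.47 ± 0.30 (SE), adjusted p = 4.62e-05 by limma. DKO cells under Torin also exceeded TFE3 KO cells under Torin, at 0.424, 1.56 and 0 (1.62 ± 0.30 (SE), adjusted p = 1.40e-04), while against WT cells under Torin the difference was 0.86 ± 0.33 (SE), adjusted p = 0.0845. The Torin response of DKO cells minus that of WT cells was 0.91 ± 0.44 (SE), adjusted p = 0.499, so a difference between these responses was not shown.

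Of the 10 genes in the SLIT and ROBO list, 8 had a row and 7 were tested besides SLIT1. SLIT2, a second ligand, had means of 3.26 in TFEB KO cells, 1.34 in WT, 0.611 in TFE3 KO and 0.422 in DKO cells without drug, all low. By limma the receptor ROBO3 rose under Torin in WT cells (1.19, adjusted p = 7.70e-07), in TFE3 KO cells (1.38, adjusted p = 1.16e-09) and in DKO cells (1.24, adjusted p = 1.77e-08). In HBSS the receptor ROBO2 rose in WT cells (1.75, adjusted p = 1.52e-09). In TFE3 KO or DKO cells against WT 0 of the 7 were called, near the 1.52% to 2.37% of all genes.

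OLFML2A was followed for its Torin response and did not part the clones without drug. It lies at chr9:124777133-124814885 on the plus strand. Without drug its values were 4.55, 4.12 and 3.32 in TFEB KO and 4.59, 3.68 and 3.27 in TFE3 KO libraries, which overlap (log2 difference -0.04 ± 0.24 (SE), TFE3 KO minus TFEB KO). WT libraries held 0.657, 1.58 and 1.17 and DKO libraries 2.03, 3.14 and 0.939. OLFML2A was higher in TFE3 KO than in WT cells (1.196 ± 0.24 (SE), adjusted p = 3.17e-04, limma), though its low WT values without drug entered the contrast of Torin responses that picked it, while in DKO cells the difference was 0.46 ± 0.24 (SE), adjusted p = 0.219.

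OLFML2A was higher under Torin in each genotype. Values under Torin were 12.4 and 10.9 in WT, 14.4, 11.8 and 14.6 in TFE3 KO, 8.79, 10.4 and 8.14 in TFEB KO and 14.8, 13.3 and 13.4 in DKO libraries. In each genotype they lie above all libraries without drug. The means rose 3.53-fold in TFE3 KO (1.59 ± 0.24 (SE), adjusted p = 1.85e-07) and 6.79-fold in DKO cells (2.35 ± 0.24 (SE), adjusted p = 1.04e-11), by limma. In WT cells the log2 difference was 2.59 ± 0.27 (SE) and in TFEB KO cells 1.02 ± 0.24 (SE), both given without a test since this contrast picked the gene. HBSS moved WT cells only to 2.07 and 2.51 (0.64 ± 0.27 (SE), adjusted p = 0.0408), short of the size threshold. The 6 olfactomedin genes tested besides it held OLFM1, which fell in TFE3 KO (-1.76, adjusted p = 6.57e-05) and DKO cells (-1.62, adjusted p = 1.83e-04) against WT without drug. It was low in TFEB KO cells as well, with means of 3.15 in WT, 0.428 in TFEB KO, 0.221 in TFE3 KO and 0.416 in DKO cells. With Torin 0 of the 6 were called, beside 5.02% to 11.7% of all genes.

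ATP1B1 encodes the beta subunit that carries the sodium pump to the plasma membrane, at chr1:169105697-169310992 on the plus strand. Without drug its values were 44.4, 50.4 and 42.8 in TFEB KO, 30.2, 25.9 and 28.1 in WT, 23.7, 19.8 and 15.4 in TFE3 KO and 19.0, 19.2 and 19.7 in DKO libraries. TFEB KO libraries lie above WT libraries, and these above TFE3 KO and DKO libraries. The differences from WT were -0.51 ± 0.19 (SE), adjusted p = 0.0833 in TFE3 KO and -0.52 ± 0.19 (SE), adjusted p = 0.0651 in DKO cells, and neither passed the test by limma.

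Under Torin TFEB KO cells lay further above WT cells, which the choice of ATP1B1 by these Torin responses implies. Values were 28.8, 33.0 and 25.04 in TFEB KO, 5.16 and 4.27 in WT, 4.03, 1.56 and 3.54 in TFE3 KO and 4.77, 5.50 and 6.49 in DKO libraries. Every TFEB KO library under Torin is above all those of the other Torin groups. The means of cells without drug were 6.45 times those under Torin in TFE3 KO (-2.39 ± 0.19 (SE), adjusted p = 7.32e-15) and 3.45 times in DKO cells (-1.63 ± 0.19 (SE), adjusted p = 7.01e-10), by limma. In WT cells the log2 difference was -2.35 ± 0.21 (SE) and in TFEB KO cells -0.65 ± 0.19 (SE), again with no test, and the difference between these responses was 1.70 ± 0.29 (SE). DKO cells under Torin were above TFE3 KO cells by less than the size threshold (0.76 ± 0.19 (SE), adjusted p = 0.00659).

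Keeping the repeated column in both WT groups moves these values, since it held 22.5 for ATP1B1 and 1.89 for OLFML2A, values near those of the WT HBSS group. With it the Torin log2 difference in WT cells was -1.67 for ATP1B1 and 1.88 for OLFML2A, and the difference of TFEB KO from WT responses was 1.02 and -0.86. ATP1B1 in TFE3 KO against WT cells under Torin then passed the test (-1.24, adjusted p = 0.0192, limma). That pass rests on the repeated column and on WT Torin values that took part in the choice of ATP1B1, so nothing is read from it.

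The pump's other subunits moved apart from ATP1B1 in part. Of 16 genes listed, 6 had a row and were tested besides it. ATP1B3, another beta subunit, fell with Torin in TFE3 KO (-1.10, adjusted p = 7.43e-19) and, just at the size threshold, in DKO cells (adjusted p = 2.59e-17), as ATP1B1 did, by limma. Its mean was also lower under Torin in WT cells, at 254 against 490, and in TFEB KO cells, at 355 against 477. Neither of these was called. Without drug the regulator FXYD3 exceeded WT in TFE3 KO cells (1.76, adjusted p = 8.20e-06) and in DKO cells (1.72, adjusted p = 1.07e-05). In DKO against WT cells 3 of the 6 were called higher without drug (FXYD3, FXYD1 and ATP1B2) and 2 under Torin (FXYD3 and FXYD1), where 1.82% and 2.37% of all genes were called in either direction. In TFE3 KO against WT cells FXYD3 was the 1 gene called in either condition. HBSS called 2 of the 6, ATP1B2 (1.05, adjusted p = 0.00294) and FXYD6 (1.72, adjusted p = 7.76e-06), both higher, against 13.1% of all genes. ATP1B1 overlaps NME7 in the annotation, and the strand setting of the counting was not given, so their reads cannot be told apart with certainty.

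**Figure D2:**
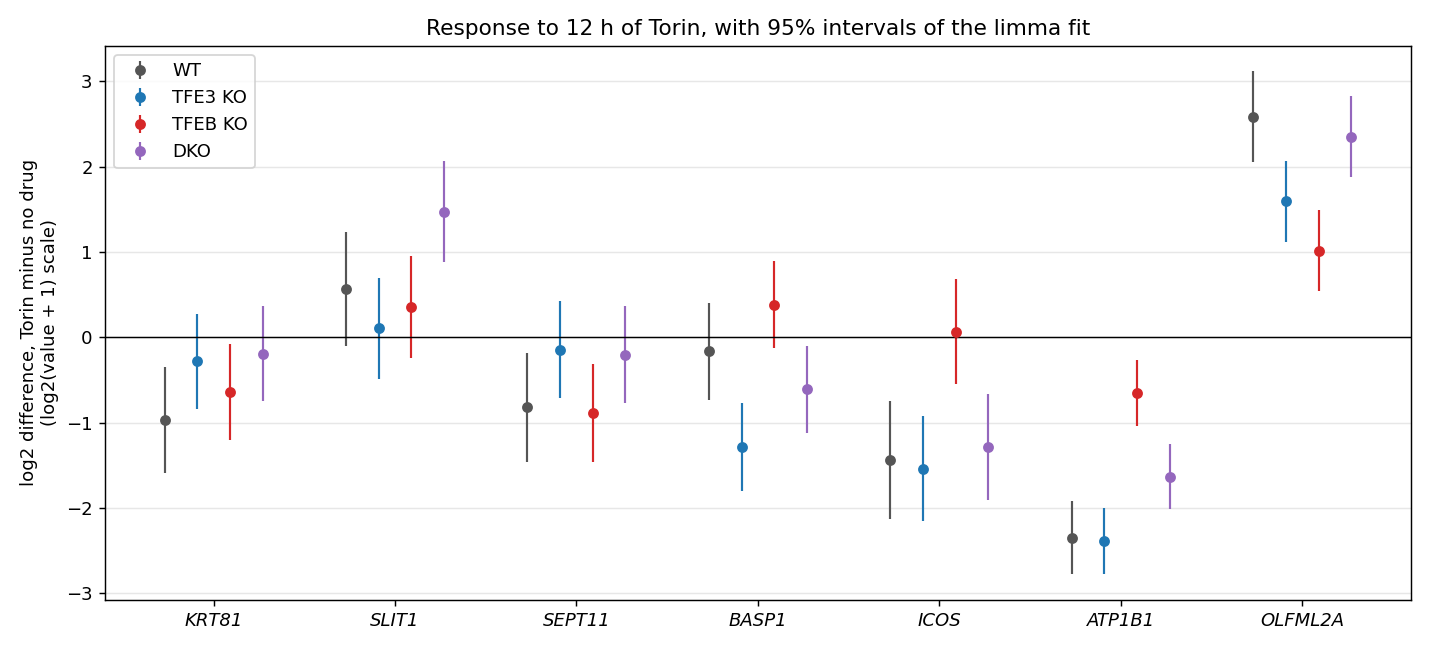
Log2 difference with Torin minus without drug for each gene, one colour per genotype, with 95% intervals of the limma fit on the log2(value + 1) scale. ATP1B1 lies at -2.35 in WT and -0.65 in TFEB KO cells, OLFML2A is above 0 in all 4 genotypes, and ICOS lies at 0.07 in TFEB KO cells.

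BASP1 stood at the high end of TFE3 KO against TFEB KO cells without drug, and KRT81 near the low end. Their opposite order in these clones was thus set by the choice. The BASP1 protein coats the inner face of the plasma membrane in growing neurites and acts as a co-repressor of WT1. The gene lies at chr5:17065598-17276843 on the plus strand. Without drug its values were 13.95, 11.2 and 11.9 in TFE3 KO, 17.3, 14.99 and 16.6 in DKO, 6.24, 7.13 and 7.22 in WT and 1.138, 2.44 and 2.49 in TFEB KO libraries. The ranges of the 4 groups do not overlap. The TFE3 KO mean was 6.10 times that of TFEB KO cells. BASP1 was higher in DKO than in WT cells (1.137 ± 0.25 (SE), adjusted p = 0.00119, limma), a test that shares the WT libraries with the contrast of TFEB KO.

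Under Torin the gap between TFE3 KO and TFEB KO cells was smaller than without drug. BASP1 was chosen by its wide gap without drug, which can give this by itself, so nothing is read from it. BASP1 values were 4.45, 3.34 and 5.83 in TFE3 KO, 11.5, 13.3 and 7.08 in DKO, 5.63 and 6.40 in WT and 2.07, 3.14 and 3.46 in TFEB KO libraries. TFE3 KO and TFEB KO libraries then overlap, with a log2 difference of 0.50 ± 0.25 (SE). In TFE3 KO cells the Torin difference was -1.29 ± 0.25 (SE), without a test since it shares the picked libraries. In DKO cells it was -0.61 ± 0.25 (SE), adjusted p = 0.0409, short of the size threshold, and in TFEB KO cells 0.38 ± 0.25 (SE), also without a test. DKO cells stayed above TFE3 KO cells under Torin (1.05 ± 0.25 (SE), adjusted p = 0.00406), a call that was lost when TFE3 KO replicate 2 (0.89), DKO replicate 1 (0.98) or DKO replicate 2 (0.89) of the Torin groups was left out. HBSS lowered BASP1 in WT cells, to 3.22 and 0.837 (-1.495 ± 0.28 (SE), adjusted p = 1.94e-05), with the lower library at 4 reads. Without that library, replicate 2, the log2 difference was -0.90 and the call was lost.

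WT1, the factor that BASP1 is known to restrain, fell in WT cells in HBSS (-1.80, adjusted p = 8.94e-12) and with Torin in TFE3 KO (-1.15, adjusted p = 4.73e-08) and DKO cells (-1.19, adjusted p = 2.27e-08), by limma. Among the 9 relatives and partners listed, all with a row, 0 were called in TFE3 KO or DKO cells against WT, near the 1.52% to 2.37% of all genes. GAP43, the protein most like BASP1 in function, was low, with group means of 0.494 to 3.03, and fell with Torin in DKO cells (-1.01, adjusted p = 0.00388).

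ICOS is known from T lymphocytes, but the 1 T lymphocyte marker with a row, CD247, reached at most 2.50. The gene lies at chr2:203936763-203961577 on the plus strand, next to CTLA4. Without drug its values were 10.8, 8.74 and 9.82 in TFE3 KO, 6.23, 6.10 and 4.07 in DKO, 3.29, 3.96 and 3.12 in WT and 0.228, 2.999 and 2.65 in TFEB KO libraries. The groups do not overlap, and 1 TFEB KO library held a single read. The log2 difference of TFE3 KO from TFEB KO cells was 2.04 ± 0.31 (SE), and that of DKO from WT cells was 0.52 ± 0.31 (SE), adjusted p = 0.298.

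ICOS fell with Torin in WT and DKO cells. Under Torin the values were 0.234 and 1.19 in WT, 3.18, 2.67 and 2.29 in TFE3 KO, 2.24, 1.41 and 1.63 in TFEB KO and 1.08, 2.66 and 1.38 in DKO libraries. WT (-1.44 ± 0.34 (SE), adjusted p = 6.15e-04) and DKO cells (-1.28 ± 0.31 (SE), adjusted p = 4.79e-04) passed the test by limma, and without WT Torin replicate 2 the WT call was lost (-1.02, adjusted p = 0.0574). In TFE3 KO cells the difference was -1.54 ± 0.31 (SE), given as a description. In TFEB KO cells, whose low values without drug picked the gene, it was 0.07 ± 0.31 (SE), also a description. HBSS also lowered ICOS in WT cells, to 1.15 and 0.628 (-1.25 ± 0.34 (SE), adjusted p = 0.00221), and this call was lost without WT HBSS replicate 2 (-1.05, adjusted p = 0.0527). Under Torin ICOS was higher in TFE3 KO than in WT cells (1.17 ± 0.34 (SE), adjusted p = 0.0208), but edgeR gave an adjusted p of 0.0620, and without WT Torin replicate 2 the difference was 0.76 (adjusted p = 0.353, limma).

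CTLA4, a receptor of the same family that restrains T cells, was the more abundant of the 2 family genes tested besides ICOS, out of 10 listed. By limma it fell with Torin in TFE3 KO cells (-2.01, adjusted p = 3.23e-14) and DKO cells (-1.86, adjusted p = 4.39e-13). In TFEB KO cells CTLA4 fell as well (-1.15, adjusted p = 2.90e-07), and so it did in WT cells in HBSS (-1.29, adjusted p = 1.22e-07). Its means without drug were 21.97 in WT, 33.5 in TFE3 KO, 30.9 in TFEB KO and 45.2 in DKO cells, and in DKO against WT cells it was called (1.004, adjusted p = 1.58e-05). Its TFEB KO mean was thus above that of WT while that of ICOS was below.

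**Figure D3:**
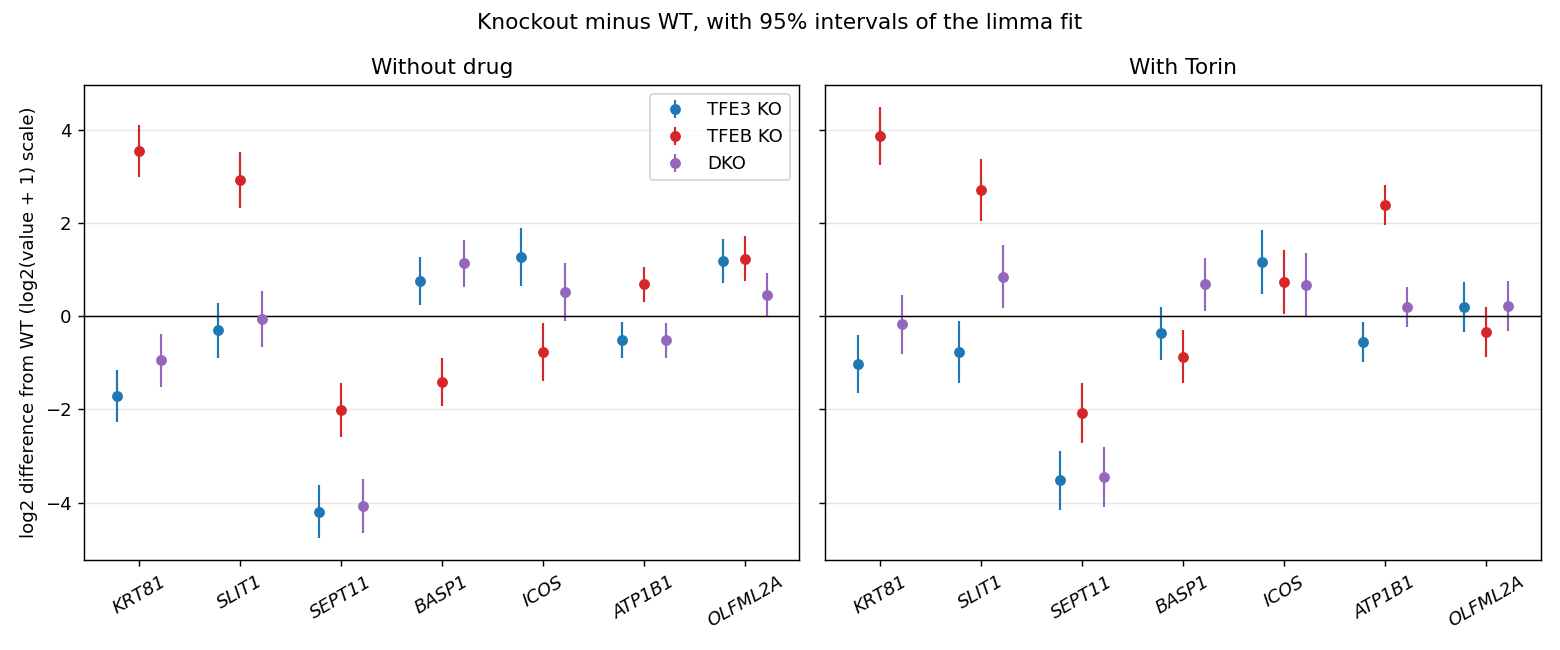
Log2 difference of each KO from WT for the 7 genes, without drug and under Torin, with 95% intervals of the limma fit on the log2(value + 1) scale. KRT81 and SLIT1 lie above 0 in TFEB KO cells (3.56 and 2.93 without drug), and SEPT11 lies below 0 in all 3 KO lines.

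Counts over the genes use limma, with a call needing an adjusted p below 0.05 together with a log2 difference of 1 or more in size. HBSS called 4 of the 7 genes (KRT81 up and SEPT11, BASP1 and ICOS down), while 13.1% of all genes tested were called, and without WT HBSS replicate 2 it called 1 of 7. Torin in WT cells called 1 of the 5 genes tested, ICOS, against 9.66% of all genes, and 2 without WT control replicate 1 or 3. In TFE3 KO cells Torin called 2 of 5 (ATP1B1 and OLFML2A, 11.7% of all genes), and in DKO cells 4 of 7 (SLIT1, ICOS, ATP1B1 and OLFML2A, 11.1%). In TFEB KO cells it called 0 of 5 (5.02%; 2 at an unadjusted p under 0.05, 0 by edgeR, and 1 call without Torin replicate 1 or 2), but all 5 were picked through the TFEB KO libraries without drug and nothing is read from this count.

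Among genotypes, TFE3 KO against WT cells without drug called 3 of 5 genes (1.52% of all genes) and under Torin 3 of 7 (1.94%), or 1 of 7 without WT Torin replicate 2 or TFE3 KO Torin replicate 1. DKO against WT cells called 2 of 7 without drug (1.82%) and 1 of 7 under Torin (2.37%), and SEPT11 was called in all 4 of these comparisons. All 4 use WT values in which SEPT11 stood high against TFEB KO cells. The DKO count without drug was 3 by edgeR, and also without WT control replicate 1 or 3 or DKO control replicate 3. The 3 calls in TFE3 KO cells without drug were KRT81, SEPT11 and OLFML2A. The untreated WT values of all 3, and the TFE3 KO values of KRT81, entered their choice, so nothing is read from this count beside 1.52%. DKO against TFE3 KO cells called 0 of 5 without drug (0.743%), with 2 at an unadjusted p under 0.05 and 0 by edgeR, and 2 of 7 under Torin (1.42%), or 1 of 7 without DKO Torin replicate 1 or 2. The Torin response of TFE3 KO differed from that of WT cells for 0 of 5 genes (0.276%; 1 at an unadjusted p under 0.05, 0 by edgeR), and that of DKO cells for 0 of 7 (0.161%; 2 at an unadjusted p under 0.05, 0 by edgeR). Both counts include ATP1B1 and OLFML2A, whose WT response to Torin took part in their choice.

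The ends of the picking contrasts are given among genes with a mean of at least 5 that passed both thresholds there and, between genotypes, had groups that did not overlap. In TFEB KO against WT cells without drug, SSX1 led with 3.60 and KRT81 followed with 3.56. SLIT1 had a log2 difference of 2.93 and the next gene, DHRS2, 2.67. At the low end SEPT11 had -2.01 and PSAT1 -1.92. In TFE3 KO against TFEB KO cells ICOS had 2.04 and MAGEA1 1.56 at the high end, and at the low end KRT81 had -5.27, the fourth lowest value. In the difference of Torin responses ATP1B1 had 1.70 and OVAAL 1.60, and OLFML2A had -1.57 and NLGN2 -1.52.

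Genes with the most similar profile were found over the 25 libraries by Pearson's r of log2(value + 1), among genes with a mean of at least 5. The libraries share groups and depth, so r is a description. For KRT81 these were ABHD2 (r = 0.92), OVAAL (0.92) and PRKAA2 (0.91), and for SLIT1 DHRS2 (0.93), SSX1 (0.90) and BEGAIN (0.89). For SEPT11 they were PSAT1 (0.94), an enzyme of serine synthesis, and CD99 (0.88). PSAT1 had means of 22.2 in WT, 5.18 in TFEB KO, 0.491 in TFE3 KO and 0.156 in DKO cells without drug, the same order as SEPT11 apart from the last pair. BASP1 was followed by CDCA7 (0.91), TRAP1 (0.87) and STMN3 (0.86), and ICOS by UBE2E3 (0.87), SLC45A3 (0.84) and NSL1 (0.84). ATP1B1 was followed by ELOVL6 (0.95), an enzyme that lengthens fatty acids, SOWAHC (0.94) and SQSTM1 (0.94), an autophagy receptor. OLFML2A was followed by USP11 (0.96), BRD3 (0.95) and LOC100288152 (0.94).

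**Figure D4:**
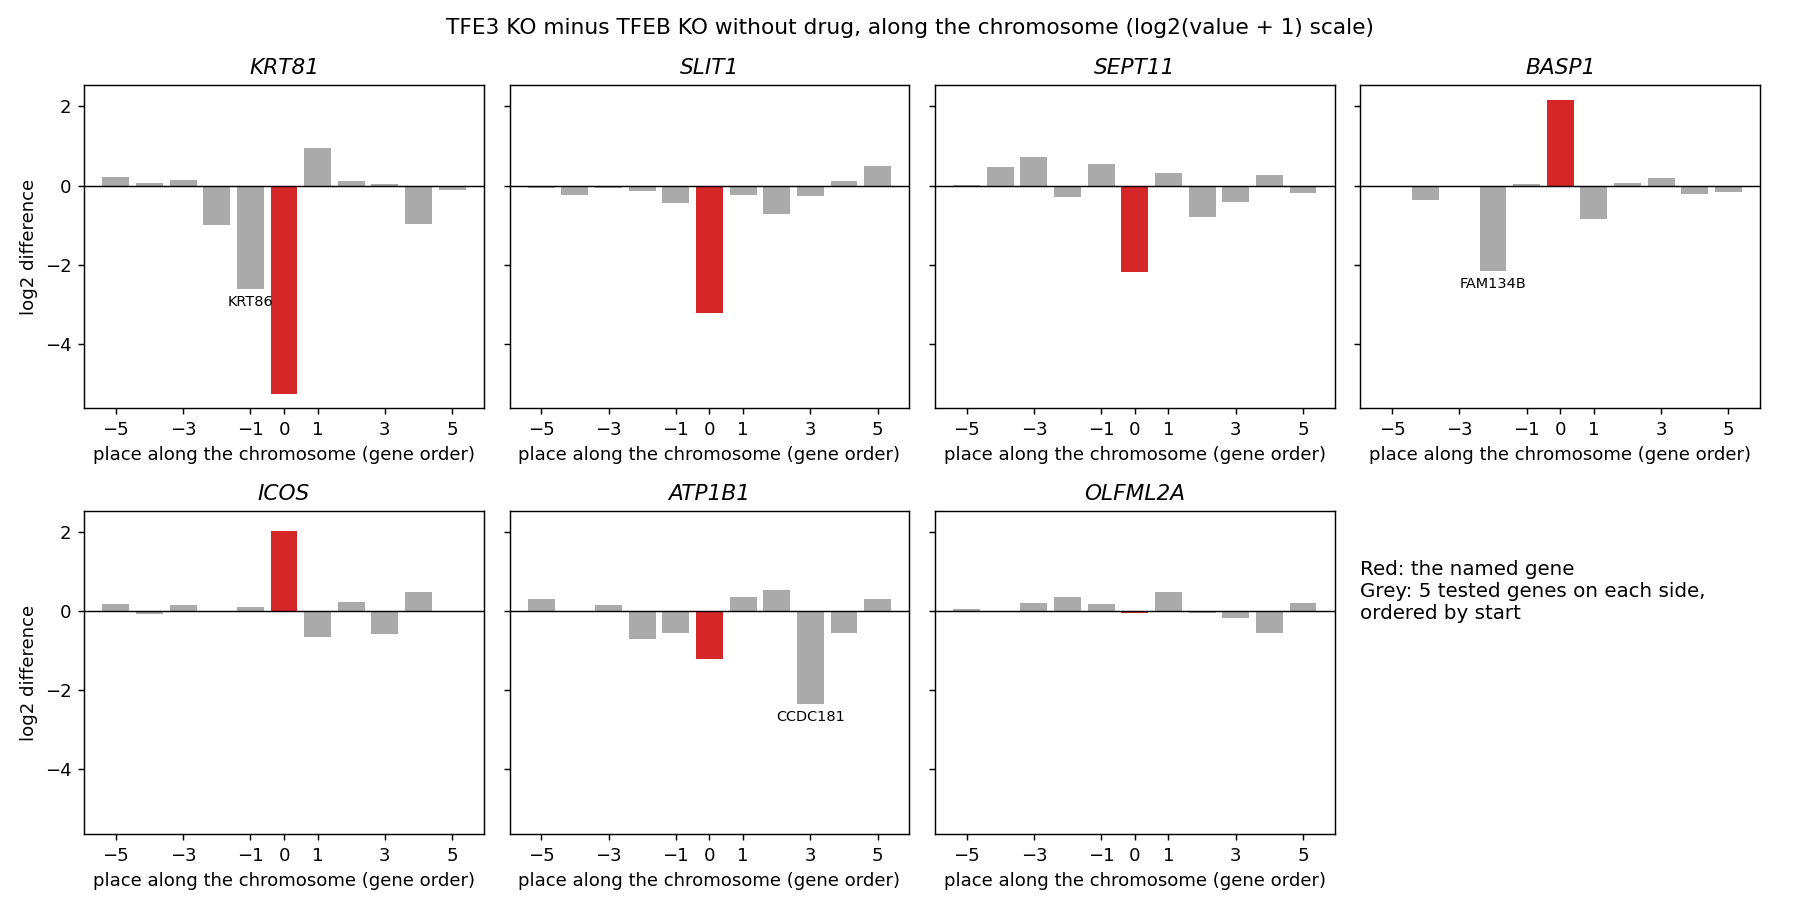
Log2 difference of TFE3 KO from TFEB KO cells without drug (log2(value + 1) scale) for each gene, in red, and for 5 tested genes on each side, in grey, in order of their start. KRT86, FAM134B and CCDC181 are the neighbours beyond -2, and the other 67 did not pass both thresholds.

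Few neighbours of the 7 genes on the chromosome passed the thresholds. Of 70 neighbours, 5 on each side, 3 passed the thresholds in TFE3 KO against TFEB KO cells (4.05% of all genes), 2 in TFE3 KO against WT cells (1.52%) and 1 in TFEB KO against WT cells (1.67%), all without drug. In DKO against WT cells 3 passed (1.82%), KRT18 near KRT81, FAM134B near BASP1 and CTLA4 beside ICOS. The 3 between TFE3 KO and TFEB KO cells were KRT86 beside KRT81, FAM134B (log2 difference -2.16 of TFE3 KO from TFEB KO cells) near BASP1 and CCDC181 (-2.33) near ATP1B1, the last a direction shared with ATP1B1 and the former opposite to BASP1. KRT80, the next gene beyond KRT86, differed by -0.997, in the direction of KRT81 and just short of the size threshold, from low values. LCOR and ARHGAP19, the nearest on either side of SLIT1, differed by -0.44 and -0.25, and SHROOM3 and CCNI beside SEPT11 by 0.53 and 0.31.

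The promoter window of RefSeq (GRCh38.p14), 250 bases before to 50 after an annotated start, was read for 6 of the 7 genes, all but KRT81. The windows of BASP1 (chr5:17216573-17216872) and ATP1B1 (chr1:169106440-169106739) lie inside the gene spans given above. The bases at the start of those spans were not read for BASP1 and ATP1B1. The E-box CACGTG, the longer CLEAR motif TCACGTGA that contains it and the M-box TCATGTG were searched on both strands. None of the 6 windows held any of them, against 7.26%, 0.98% and 2.92% of 35116 windows. These letters being absent from a window says nothing of the factors elsewhere.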

How the data were processed

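RNA from 501mel cells was profiled by the authors with QuantSeq Forward libraries. Reads were trimmed (cutadapt 2.10, FastQC 0.11.9) and aligned to hg38 with STAR 2.7.8a, and values were normalised with edgeR, per the submitters' processing notes. The counter, annotation, scaling method and gene filter are not given in the sources used here. The deposited values are a normalised signal per gene: in each column 100% of values were whole multiples of the smallest value (tolerance 0.01 reads), so dividing by it gave back whole reads, 4147050 to 6526392 a library.

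Testing required a value of 1 or more in 3 or more libraries, which 13052 genes met and 471 did not. limma 3.58.1 was applied to log2(value + 1) of all 25 libraries, with 1 coefficient for each of the 9 groups (eBayes with trend and robust, R 4.3.3), and p-values were 2-sided and Benjamini-Hochberg adjusted over all genes of a comparison. Fold changes of low genes are understated on this scale. The fit was tested on simulated data. Comparisons of TFEB KO with other genotypes carry no test, and other differences resting on values that picked a gene are given as descriptions where so stated. edgeR 4.0.16 on recovered reads was an alternative. Counting intervals are exact, conditional on the total. Of 13523 symbols, 12306 were placed in GENCODE v44 by symbol, 772 by an older name and 445 were not.

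The genes and lists were chosen with earlier results of these data known. Genes named besides the 7 are the targeted factors and MITF, called or abundant genes of 7 family lists, genes among the 3 most similar profiles, chromosomal neighbours and the next genes in the picking contrasts. Results for 2 genes that these rules name are not reported here.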

Additional observations from a re-analysis of the deposited data

Results flagged for a closer look

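In the following cases every library of one KO lay above every WT library and every library of another KO lay below. These opposite shifts were not tested, and TFEB KO values helped to pick the genes. All values are log2 differences from WT. For KRT81 without drug they were 3.56 in TFEB KO, -1.71 in TFE3 KO and -0.95 in DKO cells, and under Torin 3.88 in TFEB KO and -1.02 in TFE3 KO cells. For BASP1 without drug they were -1.41 in TFEB KO, 0.76 in TFE3 KO and 1.137 in DKO cells, and under Torin -0.87 in TFEB KO and 0.69 in DKO cells. For ICOS without drug they were -0.76 in TFEB KO, 1.27 in TFE3 KO and 0.52 in DKO cells. For ATP1B1 without drug they were 0.69 in TFEB KO, -0.51 in TFE3 KO and -0.52 in DKO cells, and under Torin 2.39 in TFEB KO and -0.55 in TFE3 KO cells. For OLFML2A under Torin they were -0.33 in TFEB KO and 0.23 in DKO cells.

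The column found under both a WT HBSS and a WT Torin label is in no group here. It held 11.2 for KRT81 and 1.89 for OLFML2A, each above the 3 untreated WT libraries.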

How the results depend on the processing

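Results were recomputed with edgeR on recovered reads, with 0.1 as pseudocount, without the filter, with a stricter filter at 5, median-of-ratios rescaling, a replicate block, only the libraries compared, the repeated column kept in both groups, and each library left out. Among 1099 tests of a single gene under an alternative, 1064 kept their side of the thresholds, 17 lost the call and 18 gained one. No called gene changed direction, but some differences short of a call changed sign. With the repeated column kept, the Torin response of TFE3 KO minus WT cells for KRT81 went from 0.69 to -0.12. The cause of each change was not tested. Other scaling moved the median of all genes by less than 0.1.

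At a pseudocount of 0.1 Torin in WT cells called 2 genes in place of 1, and DKO against TFE3 KO cells without drug called 1 in place of 0. HBSS then called 3 in place of 4, losing KRT81 and SEPT11 and gaining OLFML2A (1.02, adjusted p = 0.0154), and KRT81 was gained for Torin in TFE3 KO cells (-1.42, adjusted p = 0.0167) and for DKO against TFE3 KO cells under Torin (2.66, adjusted p = 3.21e-04), giving 3 in place of 2 in each. With the repeated column kept, DKO against WT cells under Torin called 2 in place of 1. Leaving out a library gave 1 to 4 calls for HBSS in WT cells, 1 to 2 for Torin in WT cells, 0 to 1 for Torin in TFEB KO cells, 1 to 4 for TFE3 KO against WT cells under Torin and 1 to 2 for DKO against TFE3 KO cells under Torin. The libraries were WT HBSS replicate 2 (1 call), WT control replicates 1 and 3 (2 calls), TFEB KO Torin replicates 1 and 2 (1 call), WT Torin replicate 2 and TFE3 KO Torin replicate 1 (1 call), and DKO Torin replicates 1 and 2 (1 call). DKO against WT cells without drug ran from 2 to 3 calls. That comparison reached 3 without WT control replicate 1 or 3 or DKO control replicate 3.

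Same-numbered libraries of different groups did not deviate together (mean r = 0.0047 over 92 pairs, -0.19 to 0.16), so the numbers do not pair them. With the replicate number as a block, TFE3 KO against WT cells under Torin called 2 genes in place of 3, as KRT81 came to -0.99, and the block changed no other call. Genes of a few reads, such as SEPT11 in TFE3 KO cells, are limited by depth.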
